A study of Mus musculus with 23 samples.

Results

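Amino acids cross cell and organelle membranes through solute carrier (Slc) proteins, and the mRNAs of 7 families that hold most of these carriers (Slc1, Slc3, Slc6, Slc7, Slc36, Slc38 and Slc43) were followed in quadriceps muscle and epididymal fat of mice with pancreatic tumors. Genes were taken by symbol alone, as every row of the 2 count tables whose symbol belongs to one of those families and has the usual "a" and number ending. The rule found 48 of the 17194 genes in either table, 32 of the 12831 genes measured in quadriceps and 48 of the 16962 measured in fat, and all 32 quadriceps members were also in the fat table. The mouse annotation holds 61 protein-coding genes that fit the rule, so 29 were not rows of the quadriceps table and 13 were not rows of the fat table. The families also hold a few carriers of other small molecules, which were kept: noradrenaline (Slc6a2), serotonin (Slc6a4), creatine (Slc6a8) and purine bases (Slc43a3).

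The study asked what tumor-derived IL-6 does to muscle and fat in pancreatic cancer cachexia. Male C57BL/6 mice (C57BL/6J in the study's methods), 8 weeks old, received sham surgery (no tumor), KPC cells placed in the pancreas (KPC), or KPC cells with an edited Il6 gene (KPC IL6KO). KPC cells come from a mouse pancreatic tumor. The hosts of all 3 groups carried an intact Il6 gene, the KPC control and the KPC IL6KO cells were each 1 clone, and all mice were taken when the KPC group was overtly wasted. Quadriceps libraries numbered 3 no tumor, 4 KPC and 4 KPC IL6KO, after the authors had removed 1 further no tumor muscle sample, and fat libraries numbered 4 per group. The tissues came from separate mice and were extracted and sequenced separately. Each library was treated as 1 mouse. The libraries are host tissue, so they do not check the edit in the tumor cells: Il6 is not a row of the quadriceps table, and in fat its count was 0, 0, 1 and 4 without a tumor, 136, 185, 65 and 62 in KPC and 190, 1, 9 and 156 in KPC IL6KO.

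Some of these carriers exchange one amino acid for another, and some move amino acids along with sodium or protons and so can concentrate them. The large neutral amino acid exchangers are made of a heavy chain (Slc3a2) and a light chain such as Slc7a5 or Slc7a8, and bring leucine and other essential amino acids into cells. In muscle, system A carriers of the Slc38 family take up alanine and glutamine with sodium, system N carries glutamine, and carriers of the lysosomal membrane such as Slc38a9 and Slc36a1 connect amino acid supply to mTORC1, the kinase complex that drives protein synthesis.

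Library totals ran from 19259763 to 74907810 counts in quadriceps and from 26306377 to 56308545 in fat. Levels are given as CPM, the count scaled to library size, and 3 counts correspond to 0.0462 to 0.154 CPM in quadriceps and 0.0474 to 0.123 CPM in fat. The members together took 0.0930% to 0.140% of the counts of a quadriceps library and 0.231% to 0.820% of a fat library. Fat libraries of 1 group differed far more than muscle libraries: the common coefficient of variation between replicates was 22.7% in quadriceps and 63.5% in fat. In the 4 KPC muscles the 10 most abundant genes took 19.7% to 22.9% of the counts, compared with 25.7% to 29.7% in the other 7. A gene was called when edgeR's quasi-likelihood test gave a false discovery rate (FDR) of at most 0.05 over all genes of the table and the fold change was at least 1.5, and fold changes are log2 values ± SE.

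Levels in quadriceps spanned a wide range. Per kilobase of exon, which allows genes to be compared, the highest mean over the 11 libraries was that of Slc38a4, a system A carrier, at 30.1 CPM per kb, followed by the creatine carrier Slc6a8 at 28.3 and the taurine carrier Slc6a6 at 14.5. The heavy chain Slc3a2 came next at 14.2 CPM per kb, whereas its light chain Slc7a5 was at 1.36. The lowest was Slc38a1 at 0.0538 CPM per kb. In the no tumor muscles alone, Slc38a4 ran from 69.2 to 95.1 CPM and Slc6a8 from 137 to 159 CPM.

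Most of the measured carriers differed between KPC and no tumor quadriceps. Compared with no tumor, 13 of the 32 members rose and 8 fell, and the remaining 11 did not pass the test. Those shares, 40.6% up and 25% down, stand beside 26.7% up and 29% down over all 12831 genes, and no test compared them, so the counts describe a muscle in which 55.7% of all genes were called. The median log2 fold change was 0.12 over the members and −0.03 over all genes. The carriers that rose were the heavy chain Slc3a2 and 3 of its light chains, 2 of 3 Slc43 uniporter genes, both measured cationic carriers, all 3 system A carriers, the glutamate carrier Slc1a1 and the glycine carrier Slc6a9. The carriers that fell were the system N carrier Slc38a3, both neutral ASC carriers (Slc1a4 and Slc1a5), Slc38a6, Slc38a10, Slc6a13, Slc6a17 and Slc6a2. The 4 KPC and 3 no tumor libraries did not overlap for 10 members that were higher and 8 that were lower in KPC, beside 32.3% and 33% of all genes.

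**Figure D1:**
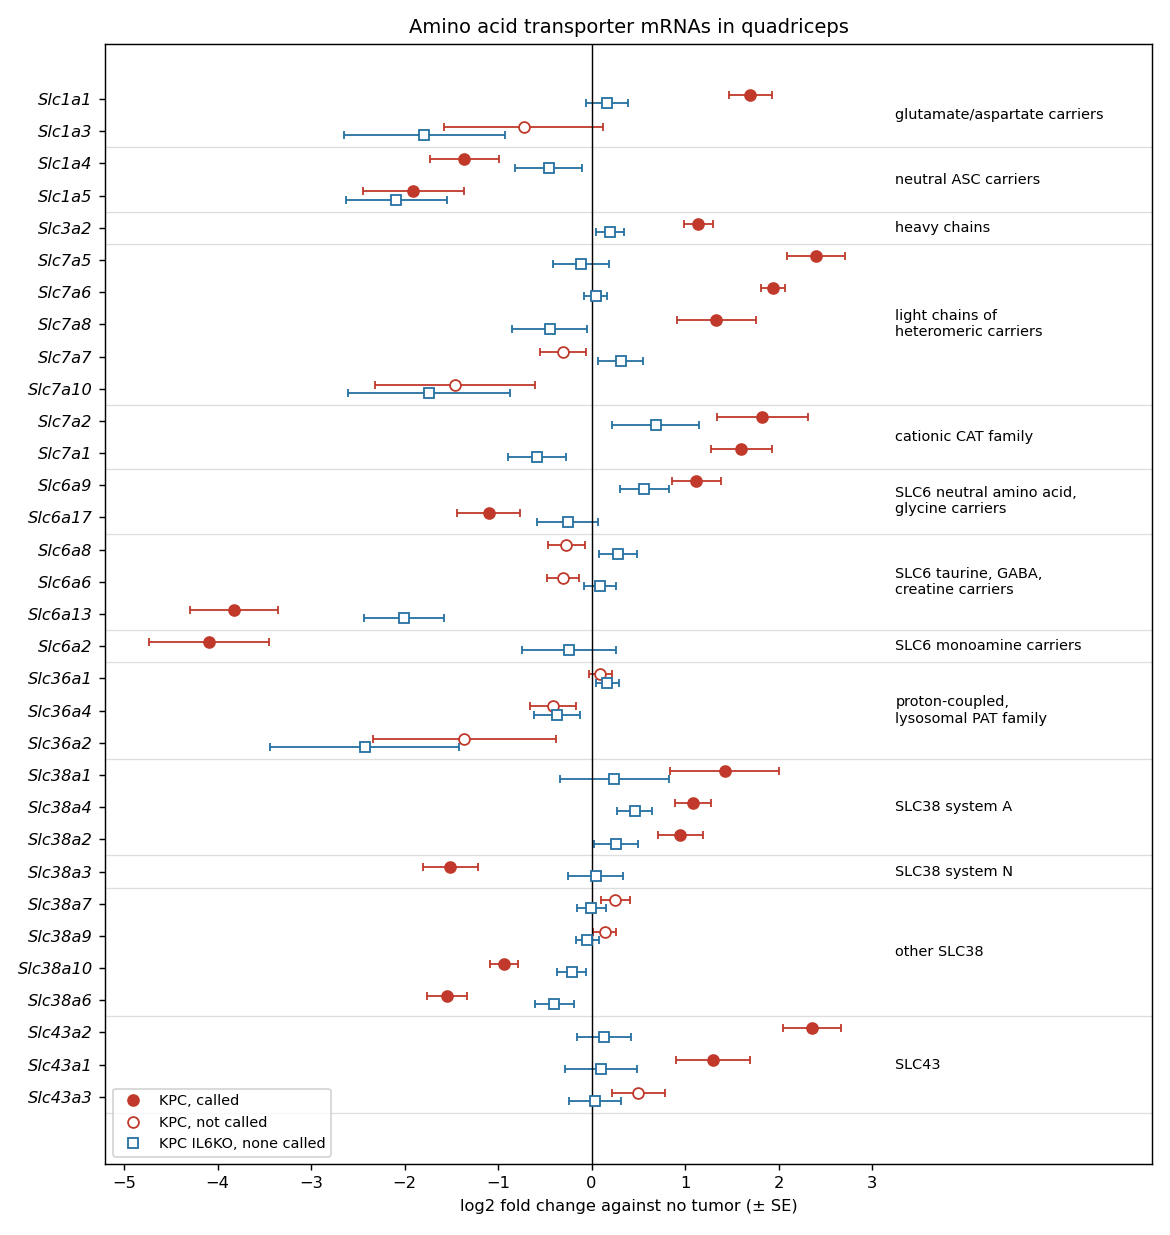
Log2 fold change (x axis, ± SE) of the 32 measured transporters in quadriceps, grouped by role, for KPC (circles) and KPC IL6KO (squares) against the same 3 no tumor libraries. Filled circles mark the 21 members called in KPC; no square is filled because no member was called in KPC IL6KO.

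Of the heavy chain and 5 light chains measured, the heavy chain and 3 light chains rose, and Slc7a7 and Slc7a10 did not pass. Slc7a5 (LAT1; chromosome 8, 121881150 to 121907694, minus strand), the light chain best known for leucine uptake, was at 2.70, 1.55 and 1.69 CPM in the no tumor libraries, 10.5, 5.96, 13.7 and 12.1 in KPC and 1.36, 1.96, 2.08 and 2.01 in KPC IL6KO. Every KPC muscle was above every other muscle, and the difference from no tumor was 5.27-fold (log2 fold change 2.40 ± 0.31, FDR 4.57e-05). Slc3a2 (4F2hc, also called CD98; chromosome 19, 8706882 to 8723369, minus strand), the heavy chain that brings these light chains to the cell surface, was at 32.7, 34.3 and 33.6 CPM in the no tumor libraries, 69.4, 59.1, 94.01 and 73.5 in KPC and 36.4, 32.98, 43.8 and 40.4 in KPC IL6KO. Here too the KPC muscles lay above all others (log2 fold change 1.14 ± 0.15, FDR 6.05e-05).

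Slc43a2 (LAT4; chromosome 11, 75531694 to 75577575, plus strand), a uniporter that lets branched-chain amino acids, methionine and phenylalanine leave or enter cells, showed 24.3, 23.7 and 25.8 CPM in the no tumor libraries, 75.00, 94.1, 191 and 144 in KPC and 27.2, 22.5, 37.02 and 21.04 in KPC IL6KO. This was the second largest rise among the members (log2 fold change 2.36 ± 0.31, FDR 5.18e-05), and every KPC muscle was above every other muscle. Slc7a6 (y+LAT2; chromosome 8, 106168857 to 106198706, plus strand), a light chain that exchanges arginine for neutral amino acids, was at 13.1, 13.2 and 12.6 CPM in the no tumor libraries, 47.1, 48.5, 60.2 and 43.1 in KPC and 12.96, 12.5, 15.03 and 13.1 in KPC IL6KO. It had the smallest FDR of all members (log2 fold change 1.94 ± 0.13, FDR 1.09e-06), with little spread inside each group.

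Slc7a8 (LAT2), another neutral amino acid light chain, was more variable, at 16.4, 20.8 and 41.6 CPM in the no tumor libraries, 97.3, 59.99, 34.6 and 71.7 in KPC and 15.9, 16.01, 13.1 and 31.5 in KPC IL6KO. KPC 3 lay below no tumor 3, so the groups overlapped, although the rise passed the test (log2 fold change 1.34 ± 0.42, FDR 0.0139). Without no tumor 1 its log2 fold change was 1.11 with an FDR of 0.0577, and without no tumor 2 it was 1.19 with an FDR of 0.0579. Slc43a1 (LAT3), the other amino acid uniporter of its family, was at 27.1, 24.96 and 28.8 CPM in the no tumor libraries, 70.7, 122, 25.1 and 47.6 in KPC and 29.1, 24.8, 34.00 and 27.6 in KPC IL6KO. Its KPC values ran from within the no tumor range to several times above it (log2 fold change 1.30 ± 0.39, FDR 0.0118). The purine base carrier Slc43a3 was not called (log2 fold change 0.50 ± 0.28, FDR 0.138).

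Both cationic amino acid carriers rose. Slc7a1 (CAT1; chromosome 5, 148327410 to 148399904, minus strand), a widely expressed carrier of arginine and lysine, was at 5.42, 5.15 and 4.71 CPM in the no tumor libraries, 22.7, 6.86, 17.5 and 14.96 in KPC and 3.90, 3.86, 2.67 and 3.22 in KPC IL6KO. KPC 2 was only just above the no tumor muscles and the other 3 KPC muscles were well above (log2 fold change 1.60 ± 0.32, FDR 0.000978). Slc7a2 (CAT2; chromosome 8, 40862396 to 40922308, plus strand), which carries arginine in muscle, liver and macrophages, was at 50.5, 48.9 and 66.6 CPM in the no tumor libraries, 99.2, 352, 66.7 and 266 in KPC and 91.3, 61.7, 101 and 102 in KPC IL6KO. KPC 2 and KPC 4 stood far above KPC 1 and KPC 3, and KPC 3 was level with the highest no tumor muscle (log2 fold change 1.83 ± 0.49, FDR 0.00563).

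The 3 system A genes, Slc38a1, Slc38a2 and Slc38a4, are neighbours on the minus strand of chromosome 15, from 96571418 to 97055956, and all were called up. Slc38a2 (SNAT2), the amino acid-regulated system A carrier of most tissues, was at 60.00, 68.8 and 76.7 CPM in the no tumor libraries, 141, 91.8, 182 and 113 in KPC and 70.4, 63.5, 82.8 and 111 in KPC IL6KO. KPC was above no tumor in every library (log2 fold change 0.95 ± 0.24, FDR 0.00446), and KPC IL6KO 4 reached into the KPC range. Slc38a4 (SNAT4) was at 85.3, 69.2 and 95.1 CPM in the no tumor libraries, 197, 145, 220.3 and 142 in KPC and 119.6, 93.7, 108 and 136 in KPC IL6KO. Its KPC muscles did not overlap either other group (log2 fold change 1.08 ± 0.19, FDR 0.000374). Slc38a1 (SNAT1) was below 1 CPM in all muscles but KPC 3, at 0.641, 0.568 and 0.410 CPM in the no tumor libraries, 0.801, 0.633, 3.53 and 0.979 in KPC and 0.886, 0.701, 0.645 and 0.394 in KPC IL6KO, and its call (log2 fold change 1.42 ± 0.58, FDR 0.0466) was lost without KPC 3, at a log2 fold change of 0.53 with an FDR of 0.177. It was also lost without any single no tumor library, with FDRs of 0.0795, 0.104 and 0.117, and without KPC IL6KO 1, 2 or 3, with FDRs of 0.0542, 0.0588 and 0.0594. A fit of the 2 compared groups alone (FDR 0.0775) and one with the replicate number as a block (FDR 0.0754) lost it as well.

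The remaining 2 rises were in a glutamate and a glycine carrier. Slc1a1 (EAAT3), a sodium-coupled carrier of glutamate, aspartate and cysteine, was at 4.31, 4.08 and 2.87 CPM in the no tumor libraries, 9.70, 9.98, 14.3 and 15.2 in KPC and 4.73, 3.31, 4.94 and 4.01 in KPC IL6KO, with all KPC muscles above the rest (log2 fold change 1.70 ± 0.23, FDR 5.95e-05). Slc6a9 (GlyT1), a glycine carrier, was at 6.04, 6.51 and 7.33 CPM in the no tumor libraries, 17.02, 11.9, 20.2 and 8.34 in KPC and 7.64, 10.05, 11.03 and 10.3 in KPC IL6KO. KPC was above no tumor in every library (log2 fold change 1.12 ± 0.26, FDR 0.00272), while KPC 4 lay within the range of KPC IL6KO. Exons of both genes share bases with a protein-coding gene on the opposite strand, 4430402I18Rik for Slc1a1 and B4galt2 and Ccdc24 for Slc6a9. The libraries were strand-specific, but the strand setting of the counting is not given in the sources used here, so reads of the partner genes may be among these counts.

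**Figure D2:**
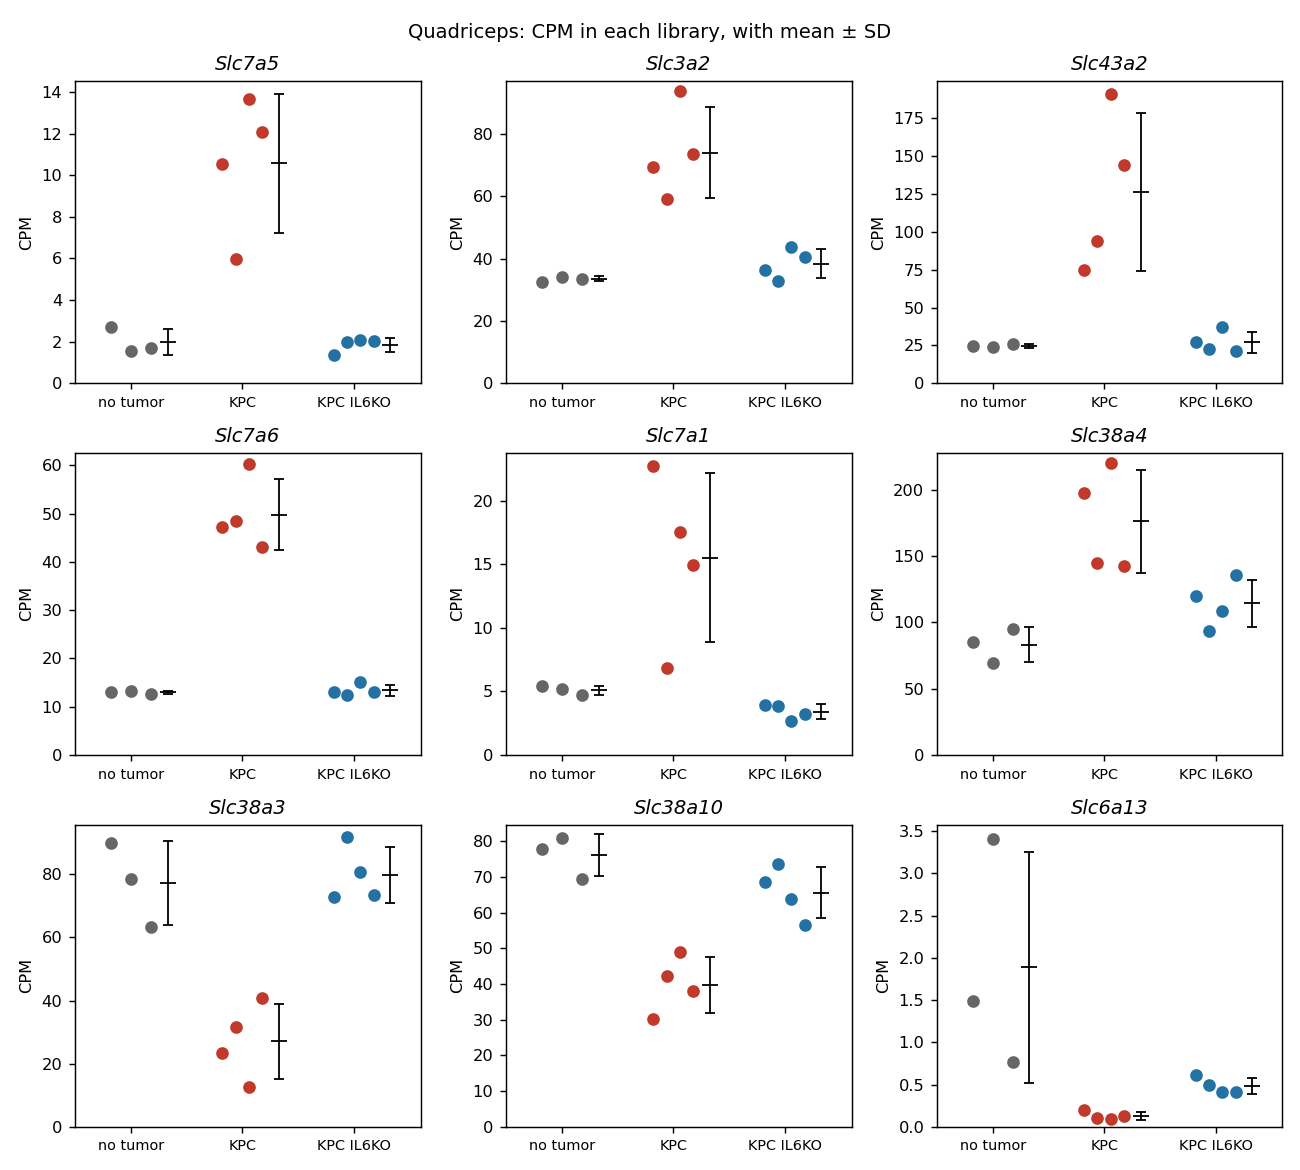
CPM (y axis, linear from 0) of 9 transporters in each quadriceps library of the no tumor, KPC and KPC IL6KO groups, with the mean ± SD of the group beside its points. The 6 carriers in the upper rows are higher and the 3 in the lowest row lower in KPC, and the KPC points of all 9 lie apart from the no tumor points.

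Among the falls, Slc38a3 (SNAT3; chromosome 9, 107650634 to 107669530, minus strand), the system N carrier of glutamine, histidine and asparagine, had the highest mean CPM over the 11 libraries, and Slc1a5 the highest per kilobase (13.3 against 11.3 CPM per kb). Slc38a3 was at 89.8, 78.4 and 63.4 CPM in the no tumor libraries, 23.3, 31.6, 12.7 and 40.7 in KPC and 72.9, 91.8, 80.6 and 73.4 in KPC IL6KO. All 4 KPC muscles lay below all others (log2 fold change −1.51 ± 0.29, FDR 0.000770), opposite in direction to the system A genes of the same family. Slc38a10, a less well known member of that family, was at 77.9, 81.05 and 69.5 CPM in the no tumor libraries, 30.2, 42.2, 48.98 and 38.1 in KPC and 68.5, 73.6, 63.99 and 56.6 in KPC IL6KO (log2 fold change −0.93 ± 0.15, FDR 0.000223). Its KPC values did not reach the lowest value of the other groups. Slc38a6 was at 3.69, 4.29 and 3.48 CPM in the no tumor libraries, 1.42, 1.71, 1.19 and 0.903 in KPC and 2.99, 2.52, 3.19 and 2.92 in KPC IL6KO (log2 fold change −1.55 ± 0.21, FDR 7.11e-05), and its 3 groups did not overlap, with KPC IL6KO between the other two.

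Carriers at low levels also fell. Slc6a13 (GAT2; chromosome 6, 121300227 to 121337733, plus strand), a carrier of GABA and taurine, was at 1.49, 3.41 and 0.768 CPM in the no tumor libraries, 0.200, 0.103, 0.0982 and 0.132 in KPC and 0.611, 0.491, 0.409 and 0.412 in KPC IL6KO. The KPC fall (log2 fold change −3.83 ± 0.47, FDR 3.20e-05) was 3.09 in size on the log2 scale without no tumor 2, with an FDR of 0.000117. Slc6a2, the noradrenaline carrier of sympathetic nerve endings, had 46, 45 and 10 counts without a tumor, 6, 2, 1 and 1 in KPC and 53, 46, 13 and 29 in KPC IL6KO. Its fitted log2 fold change of −4.09 ± 0.64 (FDR 0.000169) rests on 10 counts over the KPC group and was −4.88 (FDR 0.000214) without KPC 1, so its size is uncertain. Slc1a4 (ASCT1), a carrier of alanine, serine and cysteine, ran from 0.922 to 1.02 CPM without a tumor and from 0.257 to 0.546 CPM in KPC (log2 fold change −1.36 ± 0.37, FDR 0.00626). Slc6a17, a neutral amino acid carrier known from neurons, ran from 1.06 to 1.84 and from 0.376 to 1.05 CPM (log2 fold change −1.10 ± 0.33, FDR 0.0114), so the highest KPC library was just below the lowest no tumor library.

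Slc1a5 (ASCT2; chromosome 7, 16781340 to 16798274, plus strand), the glutamine exchanger, was lower in every muscle of both tumor groups than in every no tumor muscle. It was at 83.1, 216 and 66.3 CPM in the no tumor libraries, 51.01, 49.7, 19.3 and 10.2 in KPC and 38.2, 18.7, 27.7 and 30.01 in KPC IL6KO. No tumor 2 had by far the highest value, and the call in KPC (log2 fold change −1.90 ± 0.54, FDR 0.00789) was lost without that library, at a log2 fold change of −1.20 with an FDR of 0.0661. Adipoq, the adiponectin gene of adipocytes, was at 70.3, 197 and 35.8 CPM in the no tumor libraries, 42.8, 93.99, 9.43 and 0.828 in KPC and 35.3, 6.05, 21.6 and 18.3 in KPC IL6KO. Slc36a2 (PAT2), a proton-coupled carrier of glycine, alanine and proline, was at 14.2, 36.6 and 5.89 CPM in the no tumor libraries, 4.19, 23.3, 1.77 and 0.433 in KPC and 5.32, 1.37, 3.12 and 4.36 in KPC IL6KO.

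In the no tumor and KPC groups the libraries stood in the same order for Slc36a2 as for Adipoq. Slc7a10 (Asc-1), a light chain known as a surface marker of white adipocytes, was at 7.38, 14.6 and 4.61 CPM in the no tumor libraries, 4.65, 7.38, 0.769 and 0.188 in KPC and 4.23, 1.05, 3.19 and 2.23 in KPC IL6KO. Slc1a3 (EAAT1), a glutamate carrier, was at 11.2, 27.5 and 8.30 CPM in the no tumor libraries, 8.79, 24.6, 4.12 and 0.489 in KPC and 6.95, 1.91, 4.55 and 4.84 in KPC IL6KO. All 3 were highest in no tumor 2, the muscle highest in Adipoq, and lowest in KPC 4, the muscle lowest in it. None of the 3 was called in KPC: the log2 fold change was −1.36 for Slc36a2 (FDR 0.236), −1.46 for Slc7a10 (FDR 0.149) and −0.73 for Slc1a3 (FDR 0.464). Without KPC 2, however, Slc36a2 (log2 fold change −3.15, FDR 0.00574) and Slc7a10 (−2.24, FDR 0.0425) passed. With the log level of Adipoq as a covariate, a fit added after the data were seen, Slc1a5 in KPC was −0.98 (FDR 0.00546), Slc36a2 −0.11 (FDR 0.809), Slc7a10 −0.32 (FDR 0.235) and Slc1a3 0.45 (FDR 0.0658). Slc38a1, called in KPC without the covariate, was 1.14 (FDR 0.191) with it. How much fat tissue each muscle sample held is not known, and its part in these results was not tested beyond this covariate. The 8 listed adipocyte genes, Adipoq included, summed to 1551 to 3698 CPM without a tumor and 2123 to 2706 in KPC. In KPC IL6KO the sum was 945 to 2651 CPM. Adipoq thus does not stand for all of them, and the sum does not stand for Adipoq. In KPC 4 the counts were 83380 for Pnpla2, 21522 for Car3, 6272 for Fabp4 and 1455 for Lipe. They were 44 for Adipoq, 86 for Cidec, 23 for Plin1 and 7 for Lep. Pnpla2 had 6060 to 25073 counts without a tumor and 75414 to 131875 in KPC. The median log2 fold change of the 8 genes in KPC was −1.37, with 1 called up and 3 down.

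**Figure D3:**
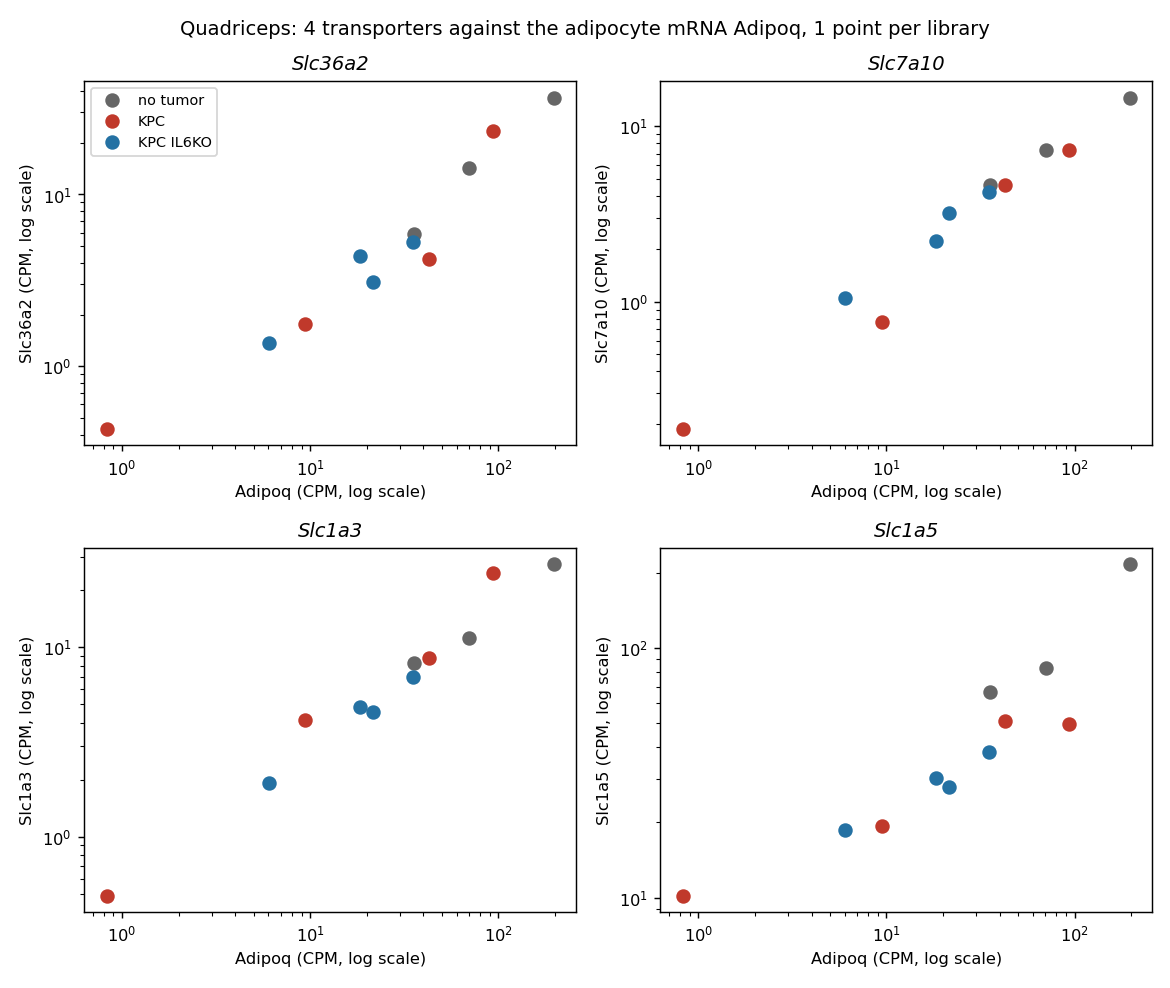
CPM of Slc36a2, Slc7a10, Slc1a3 and Slc1a5 (y axes, log scale) against CPM of the adipocyte mRNA Adipoq (x axis, log scale) in the 11 quadriceps libraries, colored by group. In all 4 panels the library with the most Adipoq is a no tumor muscle and has the highest transporter level, and the library with the least Adipoq, KPC 4, has the lowest.

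Other carriers did not pass in KPC. The most abundant were Slc6a8, at 159, 139.7 and 137 CPM in the no tumor libraries, 155, 81.2, 101 and 144 in KPC and 157, 184, 203 and 162 in KPC IL6KO (log2 fold change −0.27 ± 0.20, FDR 0.246), and Slc6a6, at 120.4, 130.2 and 135 CPM in the no tumor libraries, 145, 84.4, 105 and 82.4 in KPC and 129.5, 139, 135 and 143 in KPC IL6KO (log2 fold change −0.30 ± 0.17, FDR 0.136). In both, some KPC libraries lay within or above the no tumor range and others below it. The lysosomal carriers showed small differences: Slc38a9, which senses arginine for mTORC1, was at 7.72, 7.76 and 7.33 CPM without a tumor and 7.75, 9.60, 8.21 and 7.98 in KPC (log2 fold change 0.14 ± 0.12, FDR 0.316), and Slc36a1 (PAT1) was at 11.4, 11.6 and 11.01 and 12.9, 12.5, 13.4 and 9.77 CPM (log2 fold change 0.09 ± 0.12, FDR 0.512). The lysosomal glutamine carrier Slc38a7 had a log2 fold change of 0.25 ± 0.16 and Slc36a4 (PAT4) one of −0.41 ± 0.25, which passed with a value of −0.59 (FDR 0.0387) only when KPC 4 was left out. Slc7a7 (y+LAT1), a light chain whose exons overlap Oxa1l on the other strand, had one of −0.31 ± 0.24.

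In muscles of mice with KPC IL6KO tumors the quasi-likelihood test called no member against no tumor, as was the case for all 12831 genes (0%). At an unadjusted p under 0.05 there were 4 members and 887 genes, and the smallest FDR of a member was 0.228, that of Slc6a13 (log2 fold change −2.01 ± 0.42). DESeq2 called 1 member down and edgeR's likelihood ratio test 2: Slc6a13 by both (FDR 0.0111 and 0.00563) and Slc1a5 by the second only (FDR 0.0208). Over all genes these tests called 0.514% and 0.546% down. The groups did not overlap for 9 members, 28.1%, beside 15.5% of all genes, of which 2 were higher and 7 lower in KPC IL6KO, beside 7.54% and 8.01%. These included Slc36a2, Slc1a3, Slc7a10 and Slc1a5, with log2 fold changes of −2.43, −1.79, −1.74 and −2.09. Adipoq was also lower in every KPC IL6KO muscle than in every no tumor muscle, at most 35.3 CPM against at least 35.8, and with Adipoq as a covariate the Slc7a10 value was 0.05 (FDR 0.994) and that of Slc1a5 −1.08 (FDR 0.304). The rest of the 9 were Slc7a1, Slc6a13 and Slc38a6, which were lower, and Slc6a9 and Slc36a1, which were higher.

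The carriers that changed in KPC differed in their KPC IL6KO values. For Slc6a13 and Slc1a5 these lay below no tumor, as given above. The log2 fold change of KPC IL6KO against no tumor was −0.11 ± 0.30 for Slc7a5, 0.13 ± 0.29 for Slc43a2, 0.05 ± 0.12 for Slc7a6 and 0.05 ± 0.29 for Slc38a3. For the system A carrier Slc38a4 it was 0.46 ± 0.19 (FDR 0.595), and for the cationic carriers Slc7a2 and Slc7a1 it was 0.69 ± 0.47 and −0.58 ± 0.31. A p that misses the threshold does not show that the groups were equal.

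Compared directly, KPC muscle exceeded KPC IL6KO muscle for 11 members, 34.4%, and was lower for 8, 25%, beside 26.4% and 27.3% of all genes (53.6% in either direction). The libraries did not overlap for 8 members upward and 7 downward, beside 31.2% and 30.8% of all genes. The median log2 difference was 0.37 over the members and −0.01 over all genes. This comparison uses the same KPC libraries as the one against no tumor, so the 2 sets of calls are not independent. The largest differences upward were Slc7a5 (log2 fold change 2.51 ± 0.28, FDR 1.37e-05), Slc43a2 (log2 fold change 2.23 ± 0.28, FDR 3.17e-05), Slc7a1 (log2 fold change 2.19 ± 0.30, FDR 5.86e-05), Slc7a6 (log2 fold change 1.89 ± 0.12, FDR 6.72e-07) and Slc7a8 (log2 fold change 1.78 ± 0.38, FDR 0.00144). In all 5 the KPC libraries were above all KPC IL6KO libraries. Downward they were Slc6a2 (−3.85, FDR 0.000184, and −4.64 without KPC 1), Slc6a13 (−1.82, FDR 0.00412), Slc38a3 (−1.56, FDR 0.000421), Slc38a6 (−1.15, FDR 0.000344) and Slc1a4 (−0.90, FDR 0.0345).

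Some of these calls depended on single libraries or on the form of the fit. Slc7a2, higher in KPC by 1.14 ± 0.43, was not called without KPC 2 (0.69, FDR 0.133), without KPC 4 (0.95, FDR 0.0819) or without any 1 KPC IL6KO library, with FDRs of 0.0504 to 0.0862. Its call was also lost in a fit of the 2 compared groups alone (FDR 0.0606) and with the replicate number as a block (FDR 0.0951). Slc1a4 was not called without no tumor 1 (FDR 0.0538), without KPC 1, 2 or 3 (FDR 0.0517, 0.0835 and 0.0793) or without KPC IL6KO 1, 2 or 4 (FDR 0.119, 0.0712 and 0.0584). The fit of the 2 groups alone did not call it either (FDR 0.0549). Slc6a17 (−0.85, FDR 0.0280) was lost without KPC 1, 2 or 3 or KPC IL6KO 2, 3 or 4, with FDRs of 0.0537 to 0.0648. Slc7a7 (−0.62, FDR 0.0250), the 1 member called here but not against no tumor, was lost without no tumor 1, KPC 4 or KPC IL6KO 1 or 3, and the system A genes Slc38a2 and Slc38a4 fell under the fold limit without KPC 3 (0.49 and 0.50) or KPC IL6KO 2 (0.58 and 0.54), Slc38a4 also without KPC 1 (0.56). Slc6a9 (0.56, FDR 0.0525) and Slc38a1 (1.18, FDR 0.0566) were not called. Slc38a1 passed by DESeq2 (1.22, FDR 0.0328) and the likelihood ratio test (1.18, FDR 0.0366), which called 27.4% and 26.7% of all genes up, and without KPC 1, 2 or 4. Slc6a9 passed without KPC 2 (0.64, FDR 0.0417) or KPC 4 (0.74, FDR 0.00443). Slc1a5 was not called either (0.18, FDR 0.756), with low levels in both tumor groups. The creatine carrier Slc6a8 was lower in every KPC than in every KPC IL6KO library, with an FDR of 0.0194, but its log2 value of −0.55 was under the fold limit. It passed without KPC 1 or 4 or KPC IL6KO 1 or 4. It also passed in the fit of the 2 groups alone (FDR 0.0272) and with the block (FDR 0.0242). Slc6a6 passed without KPC 1 (−0.59, FDR 0.000623) and Slc43a3 without KPC IL6KO 4 (0.79, FDR 0.00544).

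Amino acid carriers of other families showed further changes in KPC quadriceps. Of 13 measured, 6 rose and 1 fell, beside 26.7% and 29% of all genes. Slc15a4, which moves histidine and small peptides out of lysosomes, rose by 3.19 on the log2 scale (FDR 1.37e-06), the mitochondrial branched-chain amino acid carrier Slc25a44 by 1.49 (FDR 3.29e-05), and the mitochondrial ornithine carrier Slc25a15 fell (−1.98, FDR 4.96e-06). The most abundant, the aspartate-glutamate carrier Slc25a12, was not called (−0.40, FDR 0.00457).

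Enzymes and sensors of amino acids moved in both directions, as did all genes (26.7% up and 29% down), and no test compared the lists with all genes. Of 14 enzymes of glutamine, glutamate, alanine, proline and asparagine, 4 rose and 2 fell. Glul, glutamine synthetase and the most abundant of them, was at 469, 516 and 607 CPM in the no tumor libraries, 2275, 2048, 970.4 and 2093 in KPC and 186, 299.8, 214 and 580.0 in KPC IL6KO (log2 fold change 1.80 ± 0.40, FDR 0.00175), with all KPC muscles above the rest. Prodh, which breaks proline down, rose (1.38, FDR 0.000896) and Pycr1, which makes it, fell (−1.34, FDR 6.09e-05). Asns, asparagine synthetase, was called only between KPC and KPC IL6KO (2.04, FDR 0.000472). Of 19 genes of branched-chain amino acid breakdown, 4 rose and 2 fell: Bckdha, a subunit of the dehydrogenase that commits these amino acids to breakdown, rose (1.07, FDR 4.28e-05), as did Hibch (0.84, FDR 0.000179), while Ppm1k, the phosphatase that activates the dehydrogenase, fell (−1.48, FDR 0.000977). Of 25 genes of the Rag-Ragulator path, which carries amino acid signals to mTORC1, 10 rose and 6 fell. Sesn1, a leucine-binding inhibitor of that path, was at 24.8, 21.01 and 25.8 CPM in the no tumor libraries, 619, 399, 268 and 519 in KPC and 29.996, 26.1, 39.3 and 26.5 in KPC IL6KO (log2 fold change 4.24 ± 0.29, FDR 1.24e-06). Mios (1.22, FDR 3.73e-06) and Flcn (1.09, FDR 0.00124) rose and the most abundant, the Rag GTPase Rragd, fell (−0.91, FDR 0.00167). None of these lists had a called gene in KPC IL6KO against no tumor.

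Markers of other cells also differed between the muscles. All 8 fibroblast genes fell in KPC, with a summed level of 1290.5 to 1418 CPM without a tumor, 183 to 313 in KPC and 671 to 1052 in KPC IL6KO. The 4 neutrophil genes in the table, of 8 listed, rose, from a sum of 0.359 to 0.779 CPM to 4.50 to 21.8 in KPC, with 2.14 to 4.13 in KPC IL6KO. Both measured erythroid genes rose, 3 of 6 Schwann and nerve genes fell, and 2 of 8 muscle fibre genes fell. Of 8 adipocyte genes 1 rose and 3 fell, of 8 macrophage genes 1 rose and 2 fell, of 8 endothelial genes 1 rose and 1 fell, and of 2 measured mesothelial genes 1 rose. None of the 20 epididymis, 10 pancreatic acinar and 8 gastric or ductal genes was a row of the quadriceps table. The muscle fibre genes summed to 157240 to 196140 CPM without a tumor, 126805 to 144101 in KPC and 182121 to 197696 in KPC IL6KO. Their sum was thus lower in every KPC muscle than in every other muscle. The part of all these cell types in the carrier differences was not tested, and in such bulk samples fewer cells of a type and less RNA per cell cannot be told apart.

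The promoters of the members were searched for 4 short motifs in the 250 bases before the RefSeq start (GRCm38.p6), on both strands. A promoter was in the table for 33 of the 48 members, 22 of them measured in quadriceps. The motifs were the amino acid response element TGATGNAA, the STAT motif TTCNNNGAA, the glucocorticoid receptor motif ACANNNTGT and the FoxO motif GTAAACA, present in 3.91%, 8.13%, 6.76% and 3.54% of all 27025 genes with a promoter. Of the 10 members called up in KPC muscle that had a promoter, 1 held the STAT motif and 0 the others. Of the 5 called down, 2 held the glucocorticoid motif and 0 the others. Among the 7 not called, 2 held the STAT motif and 1 the amino acid response element. These counts are too small to set against the shares of all genes.

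The stretches below are shown because they hold a motif in a member that rose, in one that fell, and in Slc7a11, a cystine carrier measured only in fat that holds the amino acid response element on both strands. Capitals mark the motif. They lie at chr5:148392923-148392991 (minus strand), chr6:121300038-121300088 (plus strand) and chr3:50443633-50443699 (minus strand), and each is written 5′ to 3′ on the strand of its gene. A match of letters describes the sequence and says nothing of binding.
Slc7a1, STAT motif: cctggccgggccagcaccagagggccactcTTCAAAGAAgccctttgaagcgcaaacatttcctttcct
Slc6a13, glucocorticoid motif: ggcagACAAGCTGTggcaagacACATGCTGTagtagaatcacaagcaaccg
Slc7a11, amino acid response element: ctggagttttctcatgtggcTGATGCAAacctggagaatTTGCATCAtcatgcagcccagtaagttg

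In epididymal fat several members varied with Gpx5, a glutathione peroxidase made by the epididymis, the duct that lies against this fat pad. Of the 12 pads, 7 had more than 10000 CPM of Gpx5: no tumor 5 and 7, all 4 KPC pads and KPC IL6KO 6. Gpx5 was at 39292, 52.2, 34256 and 4.81 CPM in the no tumor libraries, 28239, 40388, 24599.9 and 21347 in KPC and 85.8, 54957, 4.69 and 5.65 in KPC IL6KO. The split is thus uneven between the groups, with 2 of 4 no tumor, 4 of 4 KPC and 1 of 4 KPC IL6KO pads high. The other 5 pads also held epididymis RNA, with listed epididymis genes summing to 4313 to 20959 CPM, beside 47230 to 114437 in the 7. Among those 5, Crisp1 had 347520 and 918298 counts in no tumor 6 and 8 and 25302, 407962 and 308572 in KPC IL6KO 5, 7 and 8. In KPC it had 5337 to 163835. Pate4, another listed gene, had 144006 counts in KPC IL6KO 5. Gpx5 thus does not stand for all epididymis RNA. In the 7 high pads 7 members were above all their values in the other 5, and 0 were below, beside 5.59% and 2.71% of all genes.

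The member with the widest gap between these pads was Slc38a5 (SNAT5; chromosome X, 8271133 to 8280179, plus strand), a system N carrier of glutamine, glycine and serine. It was at 1986, 2.28, 2086 and 4.70 CPM in the no tumor libraries, 766, 1353, 1019 and 754 in KPC and 7.73, 4564, 1.96 and 1.56 in KPC IL6KO. Its high pads ran from 754 to 4564 CPM and the other 5 from 1.56 to 7.73. Slc7a5 was at 1560.1, 16.1, 1018 and 37.5 CPM in the no tumor libraries, 353, 766, 584 and 478 in KPC and 112, 1354, 27.7 and 61.7 in KPC IL6KO, and its partner Slc3a2 at 672, 138, 474 and 124 CPM in the no tumor libraries, 306, 412, 311 and 279.9 in KPC and 189.7, 584, 153 and 189 in KPC IL6KO. For both, all 7 pads high in Gpx5 lay above the other 5. Slc1a1 ran from 303 to 968 CPM in the 7 high pads and from 6.41 to 133 in the other 5, and Slc7a8 from 74.9 to 248 and from 23.3 to 62.4. The neutral amino acid carrier Slc6a15 ran from 4.55 to 17.1 and from 0.104 to 1.62 CPM, and Slc7a9, the light chain that carries cystine in kidney, from 3.74 to 19.5 and from 0.316 to 3.39. Per kilobase, the highest means over the 12 pads were Slc38a5 at 467 CPM per kb, Slc1a5 at 152 and Slc7a5 at 143, so 2 of the top 3 were members high in the 7 pads.

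**Figure D4:**
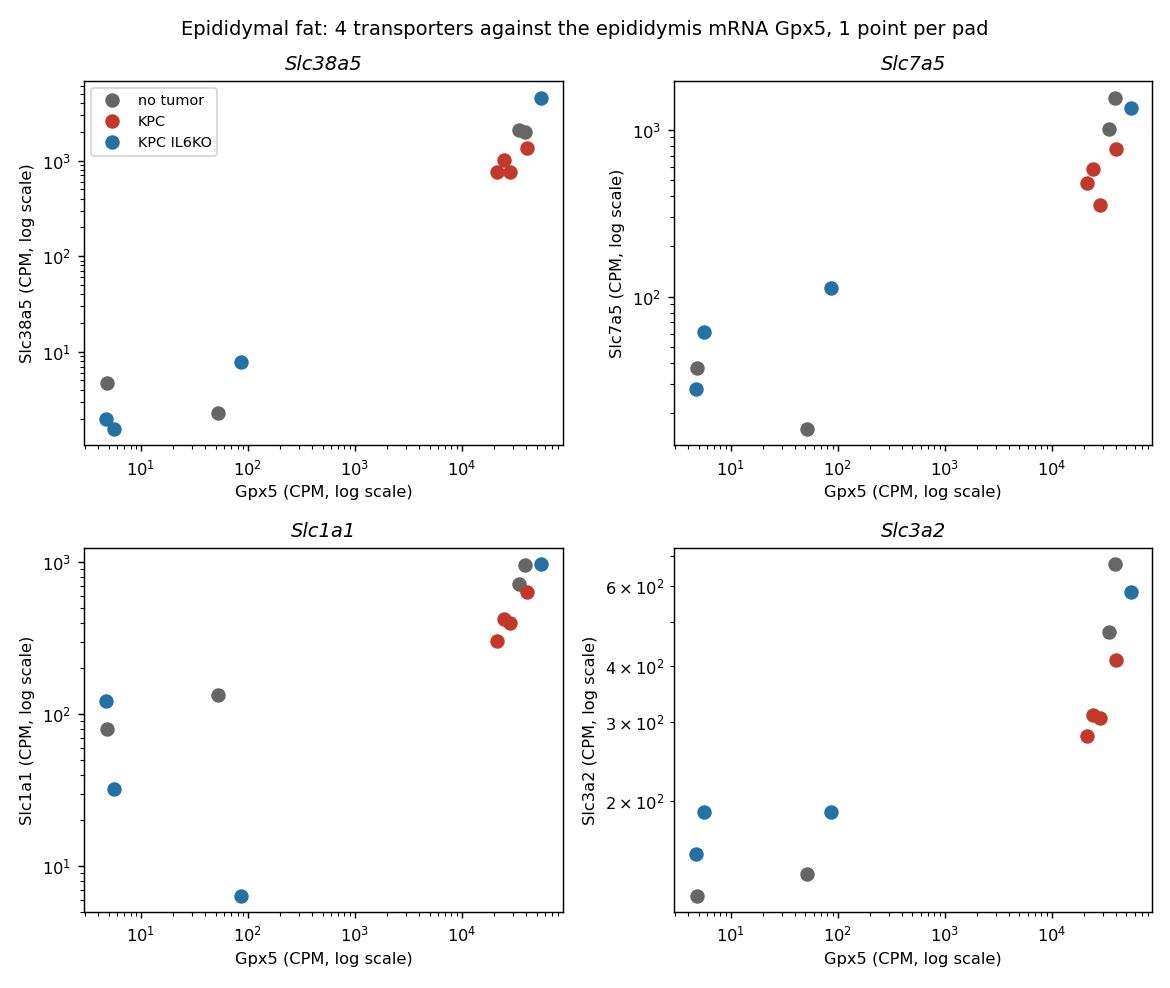
CPM of Slc38a5, Slc7a5, Slc1a1 and Slc3a2 (y axes, log scale) against CPM of the epididymis mRNA Gpx5 (x axis, log scale) in the 12 epididymal fat pads, colored by group. The 7 pads above 10000 CPM of Gpx5 (2 no tumor, 4 KPC, 1 KPC IL6KO) lie above the other 5 pads for each transporter.

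Slc1a5 and Slc7a10 were highest where the adipocyte mRNA was highest. Slc1a5 was at 563, 1953, 341 and 632 CPM in the no tumor libraries, 579, 404, 307 and 293 in KPC and 311, 502, 1156 and 563 in KPC IL6KO, Slc7a10 at 46.2, 343, 16.9 and 91.9 CPM in the no tumor libraries, 18.4, 31.8, 23.1 and 14.2 in KPC and 27.05, 39.9, 147 and 74.6 in KPC IL6KO, and Adipoq at 446, 2829.8, 123 and 991 CPM in the no tumor libraries, 324, 323, 251 and 189 in KPC and 387, 492, 1649 and 682 in KPC IL6KO. No tumor 6 had the highest value of all 3 and KPC IL6KO 7 the second highest. Slc7a10 had a log2 fold change of −2.51 ± 0.83 in KPC (FDR 0.289) and was called only by DESeq2 (−2.52, FDR 0.0381), which called 1.3% of all genes down. A pair of pads stood out for 1 carrier each: Slc7a15 was at 198 CPM in no tumor 6 and at most 3.19 CPM elsewhere, and Slc7a2 was at 374 CPM in KPC IL6KO 8 and at most 45.7 CPM elsewhere. That pad also had the highest summed muscle fibre markers, 2593 CPM against 2.92 to 409 in the other pads, and the highest summed macrophage markers, 3013 CPM against 279 to 1756.

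By the quasi-likelihood test no member was called in fat in any comparison, and neither was any of the 16962 genes (0%). That 0% depends on the test. For KPC against no tumor, edgeR's likelihood ratio test called 268 genes higher (1.58%) and 145 lower (0.855%), with no member among them. For KPC IL6KO against no tumor it called 209 higher and 0 lower. The study's own edgeR analysis gives the same counts for fat. With the quasi-likelihood test, 7 members had an unadjusted p under 0.05 in KPC against no tumor, beside 2061 genes, and the smallest FDR was 0.286. The median log2 fold change was −0.06 over the members and −0.10 over all genes. The groups did not overlap for 6 members, 12.5%, beside 10.9% of all genes. Of these, 5 were higher in KPC and 1 lower, beside 6.52% and 4.39% of all genes. Slc43a2, the LAT4 uniporter, was at 20.8, 32.3, 18.8 and 31.5 CPM in the no tumor libraries, 73.7, 50.7, 36.01 and 47.8 in KPC and 39.1, 24.1, 38.03 and 69.7 in KPC IL6KO (log2 fold change 1.01 ± 0.33, FDR 0.286). Slc7a6, the y+LAT2 light chain, was at 20.1, 30.8, 17.3 and 32.2 CPM in the no tumor libraries, 60.97, 36.8, 38.9 and 58.7 in KPC and 95.9, 22.9, 38.4 and 52.5 in KPC IL6KO (log2 fold change 0.96 ± 0.40, FDR 0.370). In both, the KPC IL6KO pads overlapped both other groups.

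The other 3 that were higher in KPC carry cationic amino acids. The y+LAT1 light chain Slc7a7 was at 4.79, 5.43, 5.18 and 7.11 CPM in the no tumor libraries, 10.7, 11.3, 12.97 and 20.2 in KPC and 43.6, 6.69, 9.18 and 20.97 in KPC IL6KO (log2 fold change 1.29 ± 0.51, FDR 0.359). The CAT2 carrier Slc7a2 was at 15.5, 10.1, 14.3 and 15.2 CPM in the no tumor libraries, 18.1, 37.3, 27.8 and 37.5 in KPC and 45.7, 20.6, 12.9 and 374 in KPC IL6KO (log2 fold change 1.13 ± 0.86, FDR 0.642), and the CAT3 carrier Slc7a3 at 1.15, 1.49, 1.39 and 1.06 CPM in the no tumor libraries, 1.90, 2.58, 2.22 and 2.89 in KPC and 5.23, 2.61, 1.46 and 1.47 in KPC IL6KO (log2 fold change 0.91 ± 0.45, FDR 0.457). The 1 member that was lower in KPC without overlap was Slc7a4, at 101, 125, 169 and 206 CPM without a tumor and 25.7, 42.7, 93.8 and 87.1 in KPC (log2 fold change −1.27 ± 0.69, FDR 0.506), a gene whose exons overlap P2rx6 on the other strand. In KPC IL6KO it ran from 13.4 to 249 CPM, across both other groups. Ces5a, 1 of the listed epididymis genes, had 23370, 54552, 93232 and 164737 counts without a tumor and 14218, 24197, 33935 and 51333 in KPC. In KPC IL6KO Ces5a had 71, 23850, 101986 and 25984 counts. Slc7a4 stood in the same order of pads as Ces5a without a tumor and in KPC IL6KO. The part of epididymis RNA in the Slc7a4 values was not tested.

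Restricted to the 7 pads high in Gpx5, a comparison of 4 KPC with 2 no tumor pads added after the data were seen, Slc7a6 was called (log2 fold change 1.47, FDR 0.0449), and no other member was, beside 2.02% of genes called up. With the log level of Gpx5 as a covariate in all 12 pads no member was called. Neither fit accounts for epididymis RNA that does not follow Gpx5. The system A carrier Slc38a2 was at 103, 73.7, 84.3 and 116 CPM in the no tumor libraries, 154, 165, 111 and 202 in KPC and 263, 94.9, 98.2 and 177 in KPC IL6KO (log2 fold change 0.75 ± 0.33, FDR 0.397). The cystine carrier Slc7a11, which supplies cysteine for glutathione, was at 159, 15.8, 106 and 55.9 CPM in the no tumor libraries, 45.00, 51.4, 41.9 and 94.7 in KPC and 8.71, 49.9, 43.3 and 25.6 in KPC IL6KO (log2 fold change −0.53 ± 0.65, FDR 0.753).

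**Figure D5:**
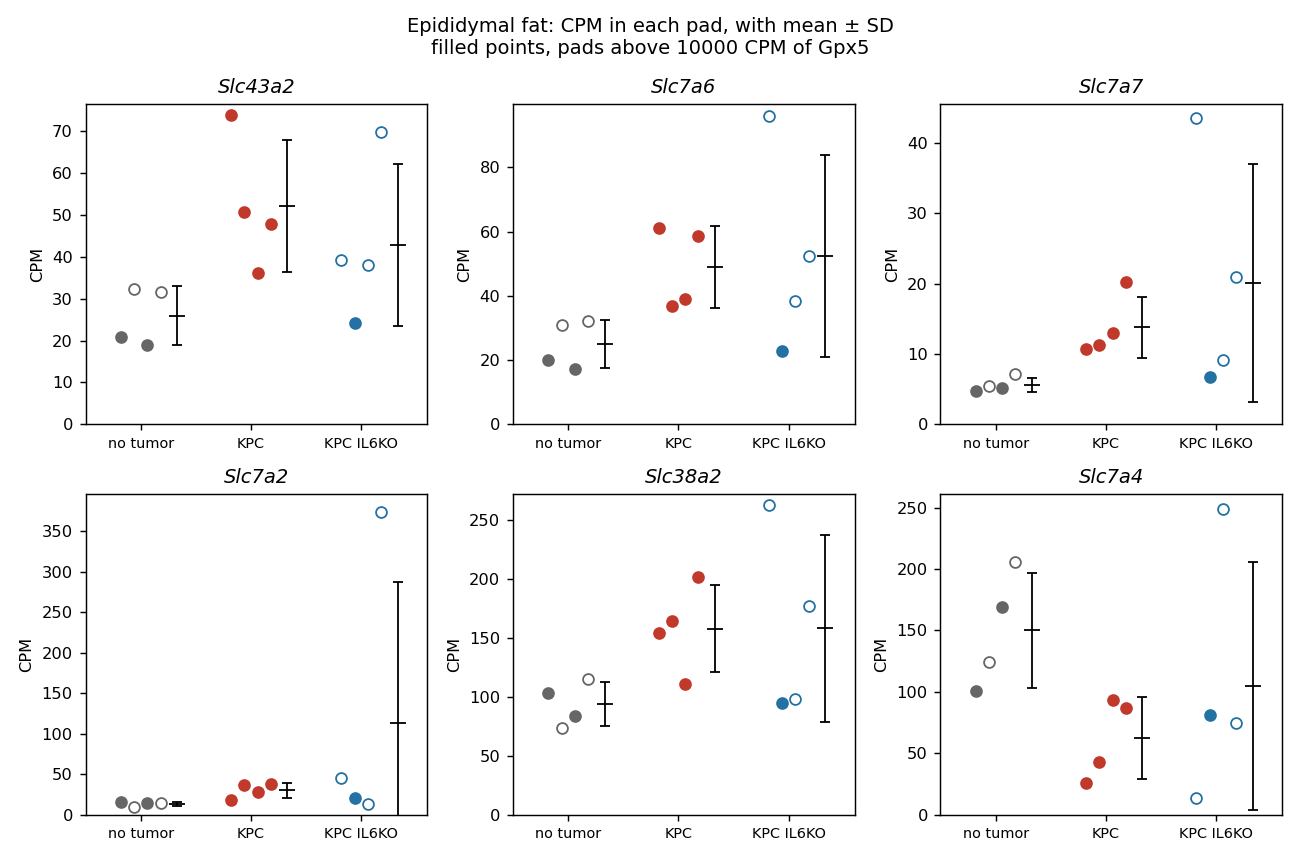
CPM (y axis, linear from 0) of 6 transporters in each epididymal fat pad, with the mean ± SD of the group beside its points; filled points are pads above 10000 CPM of Gpx5, and a lower whisker that would pass 0 is cut there. KPC and no tumor pads do not overlap for Slc43a2, Slc7a6, Slc7a7, Slc7a2 and Slc7a4, and KPC IL6KO 8 stands far above all other pads for Slc7a2.

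In KPC IL6KO against no tumor, 10 members of fat had an unadjusted p under 0.05, beside 1584 genes, with a smallest FDR of 0.394. DESeq2 called Slc7a2 and Slc7a7 (FDR 0.0224 and 0.0423) and the likelihood ratio test Slc7a2 (FDR 0.0452), beside 1.66% and 1.23% of all genes called up. Slc7a2 is the carrier for which KPC IL6KO 8 stood apart. Only Slc6a2 did not overlap, higher in KPC IL6KO at 3.61, 2.91, 2.70 and 6.602 CPM against 2.41, 1.21, 1.63 and 1.28, 1 of 48 members beside 2.01% of genes. Between KPC and KPC IL6KO 1 member had an unadjusted p under 0.05, beside 1062 genes, and neither DESeq2 nor the likelihood ratio test called any. Slc6a12, a betaine and GABA carrier, was the 1 member without overlap, beside 4.33% of genes, at 3.36, 5.76, 3.77 and 3.93 CPM in KPC and 0.540, 1.68, 2.85 and 0.397 in KPC IL6KO (log2 fold change 1.62 ± 0.65, FDR 0.716).

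The 4 lists of other carriers, breakdown enzymes, glutamine and related enzymes and Rag-Ragulator genes had no called gene in fat, with 4 of 18, 3 of 20, 2 of 15 and 2 of 25 at an unadjusted p under 0.05 in KPC.

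Markers of other cells in fat varied by pad. The summed macrophage level was 279 to 1072 CPM without a tumor, 1224 to 1756 in KPC and 467 to 3013 in KPC IL6KO, and the neutrophil sum was 3.09 to 6.57, 22.96 to 56.03 and 4.39 to 58.9. Fibroblast genes summed to 1112 to 3659, 2787 to 5835 and 1588 to 5280 CPM, mesothelial genes to 447 to 1000.2, 1194 to 2638 and 769 to 3395, and adipocyte genes to 2112 to 40827, 2883 to 10846 and 4735 to 21227. The 18 epididymis genes in the table, of 20, summed to 15883 to 113943, 47230 to 80930.0 and 4313 to 114437 CPM. Endothelial genes ran from 156 to 908 over all pads and Schwann and nerve genes from 21.5 to 65.5. Erythroid genes summed to 8.35 to 24.9, 29.7 to 57.7 and 5.94 to 30.4 CPM, and gastric or ductal genes to 130 to 404, 345 to 564 and 235 to 695. Of 7 gastric or ductal genes 4 were higher in every KPC than every no tumor pad and 0 lower, beside 6.52% and 4.39% of all genes. Their median log2 fold change was 5.81, with none called (smallest FDR 0.0763). Tff1 had 2, 0, 0 and 0 counts without a tumor, 288, 93, 318 and 592 in KPC and 9, 0, 3 and 8 in KPC IL6KO. Of 10 acinar genes only Cela1 was in the table, at 7.65 to 57.2 CPM. Their part in the carrier values was not tested.

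The KPC response was then compared between the tissues over the 12599 genes measured in both, as the quadriceps minus the fat log2 fold change. The difference was called upward for 3 members and downward for 5, 9.38% and 15.6% of the 32, beside 18.1% and 18.8% of all genes. The difference was 1.96 for Slc7a1 (1.60 in quadriceps and −0.50 in fat), 1.40 for Slc6a9 (1.12 and −0.39) and 1.24 for Slc43a2 (2.36 and 1.01). Downward it was −5.24 for Slc6a2 (−4.09 and 1.03), −1.70 for Slc7a7 (−0.31 and 1.29), −1.67 for Slc38a6 (−1.55 and 0.01), −1.60 for Slc1a4 (−1.36 and 0.13) and −1.12 for Slc38a10 (−0.93 and 0.06). The FDRs were 0.0438, 0.00696 and 0.0388 for the first 3 and 0.000363, 0.0315, 0.000540, 0.00850 and 0.00103 for the others. Slc7a5 differed by 2.52 (FDR 0.217) and Slc3a2 by 1.11 (FDR 0.173), neither of which passed, with the fat values of both following Gpx5. The call of Slc7a1 was lost in 16 of 26 alternatives, that of Slc43a2 in 10 and that of Slc7a7 in 5, all of them fits that left out 1 library. The tissues were prepared and sequenced separately, from other mice, and tissue and sequencing run cannot be told apart.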

How the data were processed

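RNA of 11 quadriceps and 12 epididymal fat samples was sequenced, and the authors aligned the reads to mm10 with STAR and deposited raw counts per gene symbol, made with featureCounts 1.5.1 of Subread; FastQC and edgeR 3.12.1 are also named in the submitters' processing notes. The GEO labels name a TruSeq RNA Access kit and the study's methods other TruSeq kits. The deposited tables had been reduced to expressed genes by a rule not given in the sources used here, as is the strand setting of the counting. Every column was used (0 unused), and no replicate pair of libraries agreed within sampling noise (chi-square per degree of freedom at least 28.9). Where the samples of a group are described only as replicates, p-values measure the spread between those samples.

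Counts were fitted per tissue with all 3 groups in edgeR 4.0.16 (limma 3.58.1, R 4.3.3): TMM scaling, filterByExpr (which removed 0 genes), quasi-likelihood F test, Benjamini-Hochberg adjustment over all genes of the table. A gene was called at an FDR of at most 0.05 and a fold change of at least 1.5. The KPC response in the tissues was compared in 1 fit over the libraries of both, by an interaction term. CPM used TMM-scaled libraries, and exon lengths and gene positions came from GENCODE vM21 (GRCm38). The procedure was tested on simulated data made from these libraries.

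Alternatives were DESeq2 1.42.0, edgeR's likelihood ratio test, RLE scaling, no filter, a stricter filter (every library at 10 counts or more), a fit of the 2 compared groups alone, the replicate number as a block, and each library left out. Fits with Adipoq or Gpx5 as a covariate, or with only the 7 pads high in Gpx5, were added after the data were seen. The members, the gene lists and the rule for naming genes were chosen with earlier results of these data known. Any member could be named. Values in every library were given for 14 carriers fixed by role, for the 5 largest called rises and falls of a comparison (or, with none called, among members without overlap), and for the 3 highest per kilobase, and other genes were named as the most changed or most abundant of their list. Drawing used Python 3.11.15 with matplotlib 3.10.9.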

Additional observations from a re-analysis of the deposited data

Results flagged for a closer look

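Of 116 groups of 4 libraries checked, 10 held a library far from the other 3 by Dixon's criterion. The groups were those of the carriers chosen for values in every library, not of all members. Chance gives about 1 in 20 for groups not chosen by their values. Some of these carriers were chosen by their differences in these data, so the 2 shares cannot be compared. In quadriceps these were Slc36a2 at 23.3 CPM in KPC 2 (0.433 to 4.19 in the other KPC muscles), the muscle with the most Adipoq of its group, Slc7a5 at 1.36 CPM in KPC IL6KO 1 (1.96 to 2.08) and Slc7a8 at 31.5 CPM in KPC IL6KO 4 (13.1 to 16.0). In fat, KPC IL6KO 6, the 1 pad of its group high in Gpx5, stood apart for Slc38a5 at 4564 CPM (1.56 to 7.73), Slc7a5 at 1354 CPM (27.7 to 112) and Slc3a2 at 584 CPM (153 to 189.7). Slc7a2 was at 374 CPM in KPC IL6KO 8 (12.9 to 45.7), the pad with the highest summed muscle fibre and macrophage markers. The others were Slc6a2 at 8.58 CPM in KPC 5 (1.04 to 2.29), Slc7a8 at 135 CPM in KPC 6 (74.9 to 79.6) and Slc6a8 at 19.7 CPM in no tumor 7 (28.1 to 29.1).

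The KPC response differed between quadriceps and fat, by the test of the difference, for 8 members: Slc6a2 (log2 difference −5.24), Slc7a7 (−1.70), Slc38a6 (−1.67), Slc1a4 (−1.60), Slc38a10 (−1.12), Slc43a2 (1.24), Slc6a9 (1.40) and Slc7a1 (1.96). These are 3 members up and 5 down of 32, beside 18.1% and 18.8% of all genes. Leaving out 1 library lost the call of Slc7a1 in 16 of 26 alternatives, of Slc43a2 in 10 and of Slc7a7 in 5. Tissue and sequencing run cannot be told apart in these values.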

How the results depend on the processing

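No member changed direction with a call under any alternative run. In quadriceps, KPC against no tumor kept within 1.5 times of 13 members up and 8 down: with 1 library left out the counts were 11 to 13 and 7 to 10, and otherwise 12 to 13 and 6 to 8. KPC against KPC IL6KO gave 8 to 12 up and 6 to 8 down with 1 library left out, and otherwise 10 to 12 up and 6 to 9 down. For KPC IL6KO against no tumor, DESeq2 called 1 member down and the likelihood ratio test 2. In fat, DESeq2 called 1 member down in KPC, the 7 pads high in Gpx5 gave 1 up, and in KPC IL6KO DESeq2 called 2 up and the likelihood ratio test 1. The difference between tissues gave 1 to 4 members up and 4 to 8 down with 1 library left out, 8 of them without no tumor 6 of the fat. The causes were not tested.

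The replicate numbers name different mice, so they do not pair the samples, and same-numbered deviations correlated at −0.167 to 0.275 in quadriceps and −0.573 to 0.585 in fat. With the replicate number as a block, 12 members were called up and 8 down in KPC muscle, 10 up and 9 down against KPC IL6KO, and 0 in fat. Depth limited Slc6a2 in quadriceps and Slc7a15, Slc6a7, Slc6a14, Slc6a15, Slc36a3 and Slc6a18 in fat, which had at most 3 counts in some libraries.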
